A study of Mus musculus with 6 samples.

Results

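Neurotrophin receptors and genes that mark sensory ganglia were measured in hindbrain tissue of E10.5 mouse embryos. The genes sought were Ntrk2, Ntrk3, Ngfr, Pou4f1, Runx1, Runx3, Avil and P2rx3, and all probe sets were taken whose single gene symbol in the annotation of the mouse 430A array is one of these 8. The rule found 17 probe sets of 7 genes among the 22626 probe sets tested, which name 12393 genes in all. Runx1 had 5 probe sets, Ntrk3 had 4, Ngfr had 3, Ntrk2 had 2, and Runx3, Avil and P2rx3 had 1 each. No probe set carried the symbol Pou4f1, so the POU factor of differentiating sensory neurons is not analysed here.

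The arrays compared 3 pools of Hoxb1 mutant segments with 3 pools of wild-type segments, each pool from several embryos and each stated by the submitters to be an independent biological replicate. Both groups were E10.5 embryos. The labels state neither the allele of the mutants nor their zygosity or strain. The labels describe the dissected piece as mostly rhombomere 4 with branchial arch tissue around it, so the pools hold cells other than those of the hindbrain segment. In such tissue, fewer cells of a type and less RNA per cell cannot be told apart.

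Neurotrophins are secreted survival factors of peripheral neurons. TrkB, the product of Ntrk2, binds BDNF and neurotrophin-4, and TrkC, the product of Ntrk3, binds neurotrophin-3, while p75, the product of Ngfr, binds all neurotrophins and is also made by neural crest cells. In trunk ganglia of the mouse, Runx1 and Runx3 separate pain-sensing from proprioceptive neurons, and Runx1 also starts definitive blood formation. Avil encodes advillin, an actin-binding protein of sensory neurons, and P2rx3 encodes an ATP-gated channel of pain-sensing and visceral sensory neurons. The geniculate ganglion, which lies beside rhombomere 4, holds many TrkB neurons.

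The targeted gene checked the labels. Hoxb1 gave 60.8, 35.3 and 50.03 intensity units on the mutant arrays, against 341, 378 and 588 on the wild-type arrays. Bacterial control probe sets, which have no mouse target, had a 95th percentile of 61.5, and a probe set at or below that value on an array is called at background there. All 3 mutant arrays lay at background for Hoxb1, and the labels do not say what the mutation removes, so whether this probe set reads the deleted stretch was not tested. The limma adjusted p of Hoxb1 was 0.0695, equal to the lowest among all probe sets. Genes of the hindbrain segment were present in both groups: of 9 measured, 7 were above background on all 6 arrays, among them Hoxb2, Hoxa2 and Crabp1. Their mean was the lower one in mutants for 8 of the 9, Hoxb1 included. Over the brightest probe sets of all 12393 genes that share was 54.5%, to be set beside such counts in every list here. The median difference was -0.19 on the scale of log2(intensity + 16). Sums ran from 9680 to 10931 in mutants and from 11449 to 13036 in wild type. The groups did not overlap in 2 of the 9, each with mutants below, beside 7.08% of all probe sets. These were Hoxb1, the mutated gene itself, and Nkx2-2, a homeobox factor of ventral progenitors. Nkx2-2 gave 99.9 ± 11.9 in mutants and 188 ± 21.3 in wild type (-0.82, SE 0.14, limma adjusted p = 0.481). The median intensity ranged from 187 to 214 over the 6 arrays. The 18S ribosomal RNA controls averaged 12.1 and 11.3 on the log2 scale in wild-type replicates 2 and 3, and 6.36 to 7.03 in the remaining 4 pools.

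The 7 measured genes fell into a detected and a barely detected set. Ntrk2, Ntrk3, Ngfr and Runx1 each had at least 1 probe set above background on all 6 arrays, 6 probe sets in total. Another 5 probe sets were above it on 1 or 2 arrays, those of P2rx3 and Runx3 among them. The remaining 6 were at or below background on all 6 arrays, including the only probe set of Avil. None of the 17 passed the test between mutant and wild-type arrays.

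**Figure D1:**
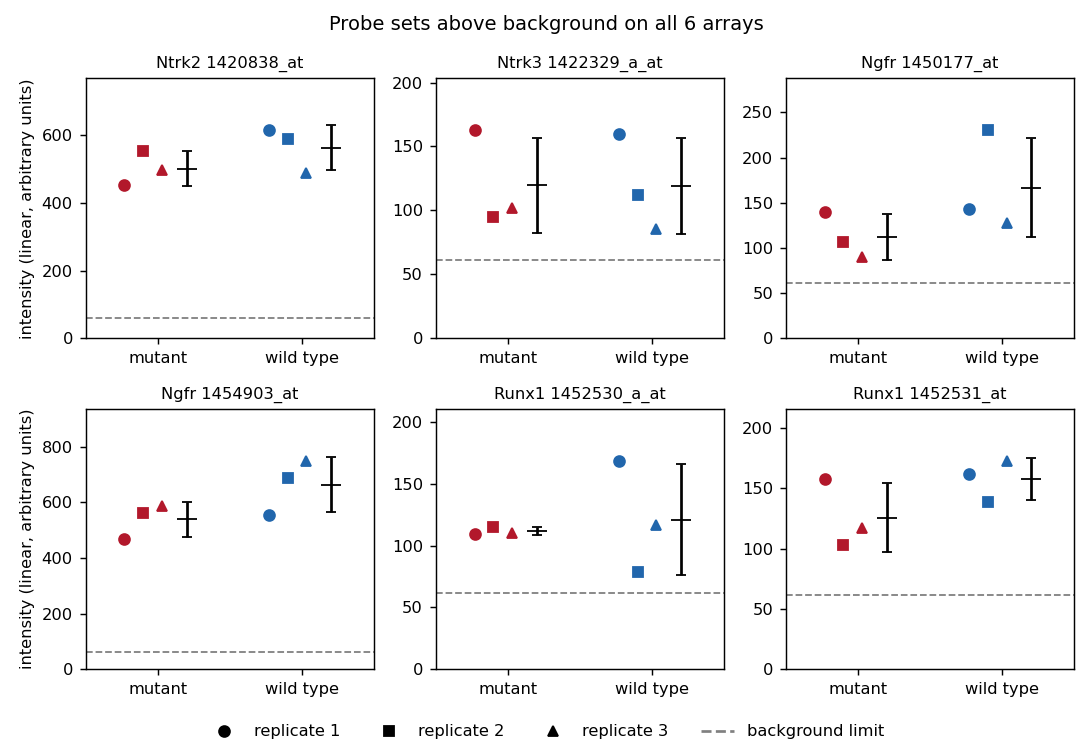
Intensity (linear, arbitrary units) of the 6 probe sets above background on all arrays, for mutant (left, red) and wild-type (right, blue) pools. Symbols are replicates, black bars are mean ± SD of 3 arrays and the dashed line is the background limit of 61.5. The groups overlap in each panel, with Ngfr 1454903_at at 469 to 585 in mutants and 555 to 747 in wild type.

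Ntrk2, the TrkB receptor, was measured by 1420838_at at 452, 554 and 497 on the mutant arrays, against 614, 588 and 489 on the wild-type arrays. One wild-type array lay inside the mutant range, so the groups overlapped. The means were 501 ± 51.2 in mutants and 563 ± 66.2 in wild type (SD, n = 3 each). On the same log2 scale, used for all differences here, the mutant minus wild-type difference was -0.16 (SE 0.14, 95% interval -0.50 to 0.17). The limma adjusted p was 0.875. The difference was -0.09 without mutant replicate 1 and -0.26 without wild-type replicate 3, and it was -0.29 without the 2 wild-type arrays of high 18S signal and -0.28 with 18S as a covariate. Only those 2 arrays had a high 18S signal, so both 18S fits compare the mutants mainly with wild-type replicate 1. They are not independent checks of each other, here or for the other genes. The other Ntrk2 probe set, 1420837_at, lay at background on all 6 arrays, between 17.96 and 55.4 in mutants and between 16.97 and 46.8 in wild type.

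Ntrk3, the TrkC receptor, was close in the means of both groups but spread widely within each. Its brightest probe set, 1422329_a_at, gave 163, 94.6 and 102 on the mutant arrays, against 160, 112 and 85.7 on the wild-type arrays. Replicate 1 was the highest array in both groups. The difference was 0.01 (SE 0.26, 95% interval -0.62 to 0.64; limma adjusted p = 0.998). That interval is wide, and 6 of 17 alternative settings turned its sign, with -0.41 without the 2 wild-type arrays of high 18S signal.

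The other 3 Ntrk3 probe sets were mostly at background. Probe set 1425071_s_at gave 59.8, 59.9 and 36.6 in mutants, against 37.3, 78.0 and 60.1 in wild type. Probe set 1426003_at gave 76.2, 41.8 and 39.2 in mutants, against 41.3, 61.4 and 59.5 in wild type. Each passed the background limit on 1 array, and the groups overlapped in both. The last, 1425070_at, lay between 2.03 and 4.48 in mutants and between 3.09 and 19.9 in wild type, at background throughout. Which receptor isoforms the 4 probe sets read was not analysed here.

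Ngfr, the p75 receptor, had the lower mean in mutants with all 3 of its probe sets. The brightest, 1454903_at, gave 469, 562 and 585 on the mutant arrays, against 555, 688 and 747 on the wild-type arrays. Of the mutant values, 2 lay above the lowest wild-type value, that of replicate 1. The means were 539 ± 61.7 in mutants and 664 ± 98.3 in wild type, a log2 difference of -0.29 (SE 0.16, 95% interval -0.66 to 0.08; limma adjusted p = 0.833). Without the 2 wild-type arrays of high 18S signal the difference was -0.05, with the remaining wild-type array assumed to vary like the mutants. The part of the 18S signal in this difference was not tested beyond that fit and the one with 18S as a covariate, which gave -0.10.

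The second detected Ngfr probe set had a larger difference and more spread. Probe set 1450177_at gave 139, 107 and 89.5 on the mutant arrays, against 143, 230 and 128 on the wild-type arrays. The mutant array of replicate 1 lay above 1 wild-type array. The log2 difference was -0.49 (SE 0.24, 95% interval -1.07 to 0.09; limma adjusted p = 0.833), and it was -0.26 without wild-type replicate 2 and -0.26 with 18S as a covariate. The third, 1421241_at, lay between 7.21 and 21.1 in mutants and between 8.99 and 25.8 in wild type, at background on all arrays.

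Genes of crest and ganglion glia, which also carry p75, were mixed. Of 13 listed genes 10 were measured and 9 were above background on all arrays. The mutant mean was the lower one for 7 of the 10, none past the adjusted test (0 genes), with a median difference of -0.04. The summed intensity of the list ran from 5282 to 6218 in mutants and from 5527 to 6504 in wild type. Sox10, a transcription factor of neural crest and glia, gave 345 ± 33.1 in mutants and 460.3 ± 36.2 in wild type, a difference of -0.40 (SE 0.13; limma adjusted p = 0.833). Gfra3, a co-receptor for artemin, gave 267 ± 17.1 in mutants and 337 ± 72.4 in wild type. Art3 lay at background on all arrays. The part of these cells in the Ngfr values was not tested.

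**Figure D2:**
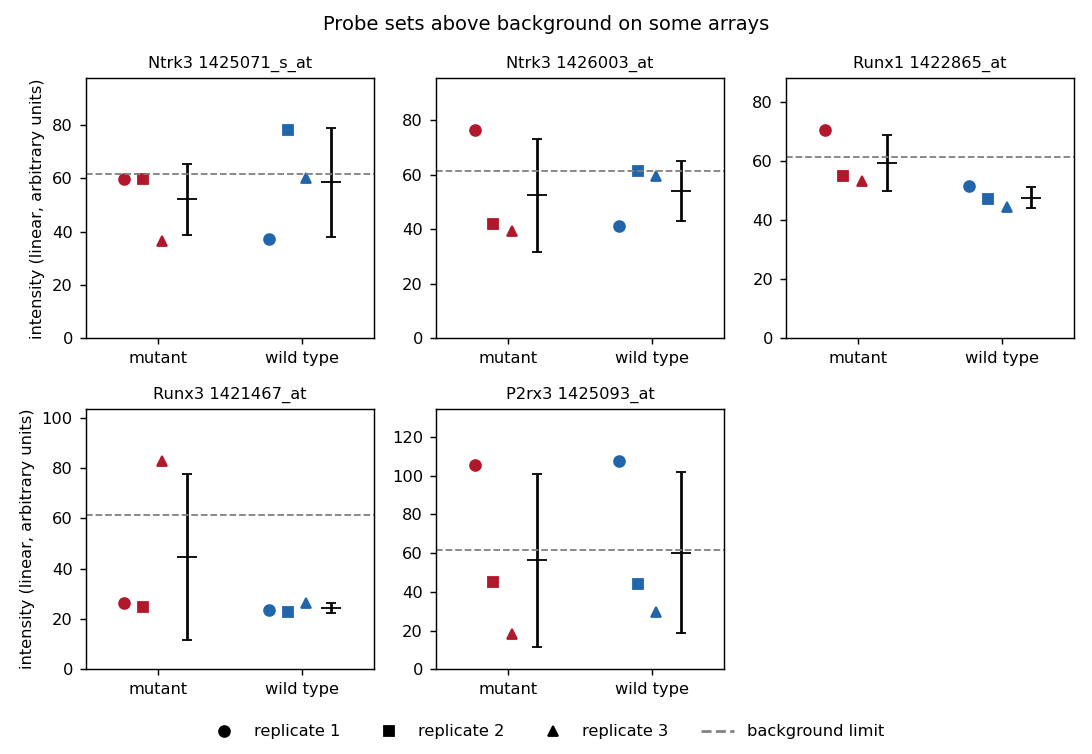
Intensity (linear, arbitrary units) of the 5 probe sets above background on 1 or 2 arrays, for mutant (left, red) and wild-type (right, blue) pools. Symbols are replicates, black bars are mean ± SD of 3 arrays and the dashed line is the background limit of 61.5. P2rx3 passes the line on replicate 1 of each group, and Runx3 on mutant replicate 3.

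Runx1 and Runx3, runt-domain transcription factors, share a sequence feature at their upstream start sites, shown here because it ties the family members together. RUNX proteins bind the letters ACCACA. These were searched on both strands of windows from 250 bases before to 50 bases after each start site in RefSeq (GRCm38.p6), and the pair of adjoining motifs was chosen after the sequences had been seen. Matches are capitals, and each stretch is 30 bases on the gene's own strand:
Runx1, chr16:92826025-92826054, minus strand: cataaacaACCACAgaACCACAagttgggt
Runx3, chr4:135120503-135120532, plus strand: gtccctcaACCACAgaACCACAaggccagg

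In Runx1 the pair begins at base 29 of the transcript, and in Runx3 it begins 134 bases before the start site (position -134). Both lie at the farther upstream of 2 start sites that RefSeq lists for the gene, and the windows at the other start sites hold no ACCACA. The run ACCACAGAACCACAA occurs in 4 of 32851 windows (0.0122%), those of Runx1, Runx2, Runx3 and Gm16225, whose window overlaps that of Runx3. The single motif ACCACA occurs in 16.8% of all windows and in 4 of the 8 windows found for 6 of the genes sought, those of Ntrk2, Avil, Runx1 and Runx3. The letters TGATNNAT, bound by PBX and HOX proteins together, occur in 8.85% of all windows and in 0 of these 8. A match is a stretch of letters and not a measured binding site. The run of paired motifs was copied from the Runx1 window, so its match there was certain. Pairs with other letters between or after the motifs were not counted.

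Runx1 gave different pictures from its 5 probe sets. The brightest, 1452531_at, gave 157, 103 and 117 on the mutant arrays, against 162, 139 and 172 on the wild-type arrays. Replicate 1 of the mutants lay above the lowest wild-type array, and the other mutant arrays lay below all wild-type arrays. The log2 difference was -0.31 (SE 0.17, 95% interval -0.72 to 0.10; limma adjusted p = 0.836). It was -0.46 without mutant replicate 1 and -0.19 without mutant replicate 2. The second detected probe set, 1452530_a_at, gave 110, 115 and 111 in mutants, against 168, 78.5 and 117 in wild type. Its mutant values were nearly equal while the wild-type values spanned them on both sides, and the difference was -0.05 (SE 0.24). It was -0.53 without the 2 wild-type arrays of high 18S signal and -0.53 with 18S as a covariate, and 0.19 without wild-type replicate 1, so its value rests on single wild-type arrays.

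The other 3 Runx1 probe sets held the only 2 probe sets of the 17 whose groups did not overlap, in opposite directions. Probe set 1422864_at gave 11.5, 11.7 and 28.2 in mutants, against 45.3, 39.2 and 35.3 in wild type, all at background. Its fitted difference of -0.79 (SE 0.21) had the lowest p of the 17 (limma adjusted p = 0.763). Both groups lay at background, so this difference is not read as a measured change. Probe set 1422865_at gave 70.3, 54.9 and 53.1 in mutants, against 51.3, 47.1 and 44.4 in wild type, with 1 array above background. Its difference was 0.24 (SE 0.13; limma adjusted p = 0.833), and 0.14 without mutant replicate 1. Probe set 1427650_a_at lay between 5.70 and 10.53 in mutants and between 6.80 and 13.4 in wild type.

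Over all 22626 probe sets the groups did not overlap in 12.0%, with mutants below in 7.08% and above in 4.88%. The 2 of 17 seen here are near that share. An unadjusted limma p under 0.05 was reached by 1 of the 17, against 5.76% of all probe sets, 3.88% with mutants lower and 1.88% with mutants higher. In the adjusted test, 0 of 17 and 0% of all probe sets passed, with 1303 probe sets at an unadjusted p under 0.05.

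Runx1 is also expressed in blood cells, and markers of macrophages and leukocytes had mostly lower means in mutants. All 14 listed genes were measured and 7 were above background on all arrays. Of the 14, 13 had a lower mean in mutants, beside 54.5% of all genes. The median difference was -0.24, with 0 past the adjusted test. Their summed intensity ran from 1826 to 2521 in mutants and from 2382 to 2847 in wild type, so the groups overlapped. Fcgr3, an Fc receptor of macrophages, gave 74.6 ± 15.4 in mutants and 114 ± 18.9 in wild type (-0.52, SE 0.17), Ptprc, the leukocyte antigen CD45, gave 57.7 ± 14.6 in mutants and 79.4 ± 9.05 in wild type, and Coro1a, an actin-binding protein of leukocytes, gave 364 ± 32.6 in mutants and 465 ± 84.0 in wild type. Ptprc was at background on mutant replicates 1 and 3 and Fcgr3 on mutant replicate 3, and Itgam lay at background on all arrays. Markers of embryonic erythroid cells had a median difference of 0.13, with 3 of 9 lower in mutants, and those of endothelium had -0.07, with 7 of 10 lower. The part of these cells in the Runx1 values was not tested.

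Runx3 lay at background on all but 1 array. It gave 26.5, 24.8 and 82.6 on the mutant arrays, against 23.7, 22.6 and 26.4 on the wild-type arrays. The mutant mean of 44.7 ± 32.9 therefore rests on replicate 3, against 24.2 ± 1.93 in wild type. The log2 difference was 0.47 (SE 0.34, 95% interval -0.34 to 1.27; limma adjusted p = 0.858), and without mutant replicate 3 it was 0.05. Cbfb, the partner subunit that RUNX proteins bind DNA with, gave 3601, 3708 and 3609 on the mutant arrays, against 4283, 4071 and 4382 on the wild-type arrays. All mutant arrays lay below all wild-type arrays, and the difference of -0.22 (SE 0.10) had a limma adjusted p of 0.833.

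The sensory neuron markers Avil and P2rx3 were at or near background. Avil lay between 10.9 and 17.2 in mutants and between 11.3 and 13.9 in wild type, not above background on any array. P2rx3 gave 105, 45.2 and 18.3 on the mutant arrays, against 107, 43.9 and 29.3 on the wild-type arrays. Replicate 1 stood above background in each group and the other 4 arrays lay below it. The difference was -0.13 (SE 0.53, 95% interval -1.41 to 1.14; limma adjusted p = 0.978), the widest interval of the 17 probe sets.

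The height of replicate 1 in both groups was shared by 5 of the 17 probe sets, 1 each of Ntrk2, P2rx3 and Runx1 and 2 of Ntrk3. Only Ntrk3 1422329_a_at among them was above background on all arrays. Ntrk2 1420837_at and Ntrk3 1425070_at were above it on none, and Runx1 1422865_at on 1. Over all probe sets tested, 16.5% were highest on replicate 1 in both groups. The labels give same-numbered samples of both groups a shared number also in their sample codes, without saying what it stands for. Same-numbered arrays did not all deviate together. The correlations of their deviations from the group means were 0.05 for replicate 1, -0.02 for replicate 2 and 0.04 for replicate 3 over all probe sets, and 0.09, -0.01 and 0.12 for replicates 1, 2 and 3 over those above background on all arrays. Over the latter, differently numbered arrays ran from -0.12 (mutant replicate 1, wild-type replicate 3) to 0.04 (mutant replicate 1, wild-type replicate 2). Replicates 1 and 3 thus gave the highest values there, and what same-numbered arrays share was not tested. These are correlations across genes, which are not independent replicates.

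**Figure D3:**
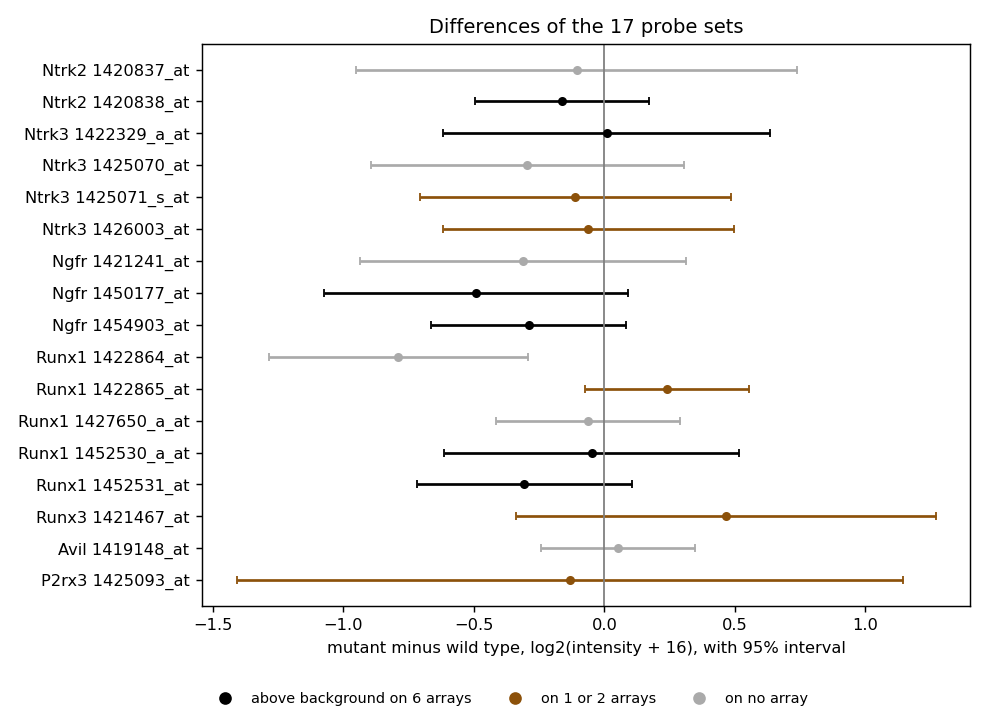
Mutant minus wild-type difference on the scale of log2(intensity + 16) for the 17 probe sets, with 95% intervals of the limma fit. Colours give the number of arrays above background. The interval of Runx1 1422864_at, a probe set at background on all arrays, is the only one of the 17 that does not reach 0.

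In all, 13 of the 17 probe sets had a lower mean in mutants, beside 54.2% of all probe sets. That count includes probe sets at background, which have no measured direction, and only 6 of the 17 were above background on all arrays. The number with a negative difference was 12 of 17 with quantile normalization or array median centring, and 10 to 15 when 1 array was left out. The median difference of the 17 was -0.11, and that of all probe sets -0.02. Probe sets of 1 gene share their target and are not independent of each other. Summed over the brightest probe set of each of the 7 genes, intensity ran from 1389 to 1416 in mutants and from 1563 to 1635 in wild type. The summed groups did not overlap, and Ngfr and Ntrk2 made up most of the sum on each array. In both of these genes the groups overlapped on their own. The sums of the hindbrain, cranial sensory neuron factor, arch mesenchyme and otic vesicle lists did not overlap either. How often sums of other genes separate the groups was not tested. Of these 6 probe sets above background on all arrays, 5 had a negative fitted difference, from -0.49 to -0.05, and Ntrk3 1422329_a_at had 0.01. Among all probe sets above background on all arrays, 52.9% had a lower mean in mutants. The smallest of the 5, that of Runx1 1452530_a_at, turned to 0.0135 with quantile normalization and to 0.0057 with array median centring.

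Other genes of neurotrophin signalling went in both directions. Of 22 listed genes 14 were measured and 12 were above background on all arrays. Of the 14, 9 had a lower mean in mutants, 0 passed the adjusted test, and the median difference was -0.04, beside -0.02 over the brightest probe sets of all 12393 genes. Bdnf, a ligand of TrkB, gave 288, 174 and 201 on the mutant arrays, against 208, 172 and 229 on the wild-type arrays, with a difference of 0.10 (SE 0.20). The highest and the lowest Bdnf values of the 6 arrays came from mutant replicate 1 and wild-type replicate 2. Sh2b1, an adaptor of Trk receptors, gave 412, 388 and 377 on the mutant arrays, against 488, 525 and 459 on the wild-type arrays. Its groups did not overlap, and the difference was -0.31 (SE 0.11, limma adjusted p = 0.833). Sort1, the co-receptor sortilin, gave 674 ± 23.2 in mutants and 736 ± 51.3 in wild type. Its highest mutant value of 699 lay just below its lowest wild-type value of 702. The groups thus did not overlap in 2 of the 14, each with mutants below, beside 7.08% of all probe sets. Shc3, an adaptor of neurons, gave 63.1 ± 27.8 in mutants and 81.1 ± 5.93 in wild type. It was at background on 2 mutant arrays, with 50.2 on replicate 1 and 44.0 on replicate 2. Plcg1 lay at background on all arrays. The ligands Ntf3 and Ntf5 were not named by a single-symbol probe set and are not analysed here.

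Transcription factors of cranial sensory neurons had mostly lower means in mutants. Of 21 listed genes 15 were measured, 13 of them had a lower mean in mutants, beside 54.5% of all genes, and the groups did not overlap in 4, each with mutants below, beside 7.08% of all probe sets. The median difference was -0.20, and 0 passed the adjusted test. The summed intensity ran from 9067 to 9352 in mutants and from 10205 to 11814 in wild type. Cbfb, the partner subunit of RUNX proteins, was among the 4 and was the brightest gene of the list on every array. It gave 3640 ± 59.3 in mutants and 4245 ± 159 in wild type, and the sum without it was not analysed. Neurod4, a proneural factor, gave 101 ± 19.2 in mutants and 189.95 ± 24.6 in wild type (-0.83, SE 0.16; limma adjusted p = 0.615). Phox2a, a homeobox factor of epibranchial sensory and of motor neurons, gave 81.4 ± 24.6 in mutants and 165 ± 48.7 in wild type (-0.89, SE 0.26, limma adjusted p = 0.817). It was at background on mutant replicate 1, with 60.4. Many genes of this list are also expressed in the hindbrain itself, and the part of hindbrain cells in these values was not tested. Pou4f3 lay at background on all arrays.

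Receptors, channels and peptides of sensory neurons were spread around wild type. Of 26 listed genes 20 were measured, 14 were above background on all arrays and 12 had a lower mean in mutants, with a median difference of -0.05 and 0 past the adjusted test. Their summed intensity ran from 7844 to 9389 in mutants and from 8817 to 10234 in wild type. Cntn2, a cell adhesion protein of early axons, gave 169 ± 33.5 in mutants and 253 ± 49.7 in wild type (-0.54, SE 0.19, limma adjusted p = 0.833). Other genes had the higher mean in mutants, among them Sncg (0.35, SE 0.26), Kcnd1 (0.39, SE 0.32) and Scn11a (0.45, SE 0.29). Scn11a was above background on 1 array only. The channel genes Trpm8 and Scn10a and the heavy neurofilament Nefh lay at background on all arrays, as Avil did. Peripherin, Prph, gave 199, 95.8 and 119 in mutants, against 160, 181 and 131 in wild type, above background on all arrays and with overlapping groups.

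Tissue around the hindbrain was present in both groups. Arch mesenchyme genes had a median difference of -0.09, with 8 of 11 lower in mutants, and summed to 12994 to 13661 in mutants and 13966 to 15450 in wild type. Twist1 gave 868 ± 71.2 in mutants and 1100 ± 150 in wild type, Col1a1 gave 481 ± 77.4 in mutants and 659 ± 119 in wild type, and Dlx2 gave 293 ± 30.6 in mutants and 370 ± 132 in wild type. Postn went the other way, with 494 ± 112 in mutants and 425 ± 31.3 in wild type. Otic vesicle genes had the lower mean in mutants in 6 of 6 measured, with a median difference of -0.40, and summed to 996 to 1127 in mutants and 1306 to 1589 in wild type. Gata3, also a gene of ventral hindbrain neurons, gave 92.1 ± 11.99 in mutants and 139.9 ± 10.7 in wild type, Dlx3 gave 241 ± 59.2 in mutants and 358 ± 125 in wild type, and Oc90 gave 163 ± 60.9 in mutants and 231 ± 46.1 in wild type. In both lists 0 genes passed the adjusted test. The part of the amount of tissue in the receptor values was not tested.

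**Figure D4:**
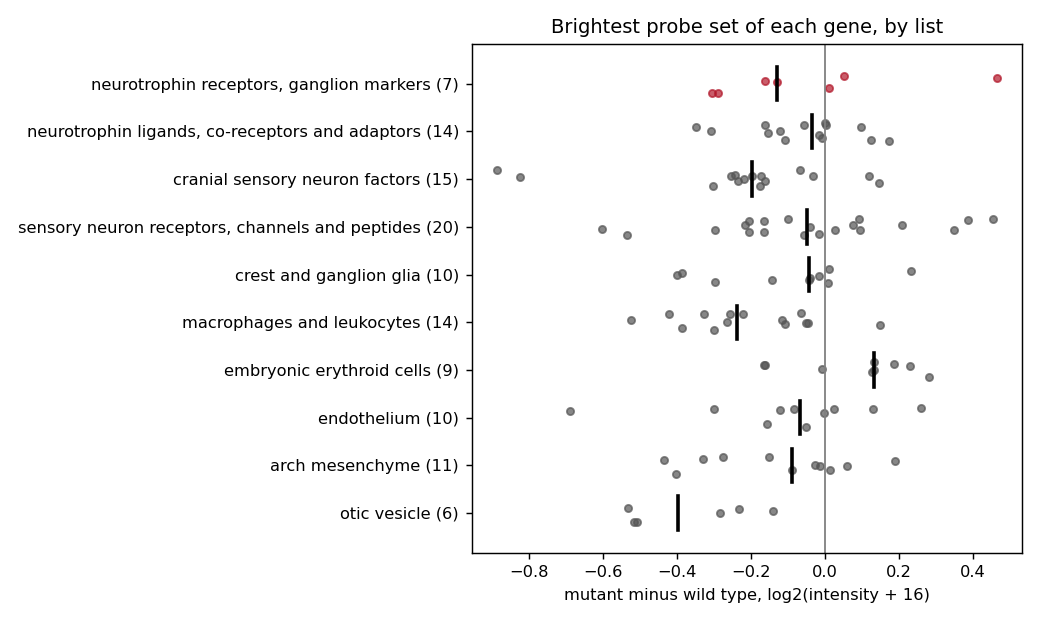
Mutant minus wild-type difference on the scale of log2(intensity + 16) for the brightest probe set of each gene (points) and the median of each list (black bars), with the number of measured genes in brackets. The neurotrophin receptors and ganglion markers (red) have a median of -0.13, cranial sensory neuron factors -0.20 and otic vesicle genes -0.40.

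The genes whose levels over the 6 arrays were most like those of the detected members were found by Pearson correlation of log2 values, among 9054 other genes above background on all arrays. With 6 arrays and so many genes, high values arise for any profile, so they are given as a description. For Ngfr these were Zfp395 (0.99), Arap3 (0.99) and Repin1 (0.99), and for Ntrk2 they were Prkg2 (0.98), Tfb1m (0.97) and Lamb2 (0.97). For Ntrk3 they were Jph1 (1.00), Tspan8 (0.99) and Foxn1 (0.99), each highest on replicate 1 of both groups. For Runx1 they were Hhatl (0.99), Chd8 (0.99) and Wnt7a (0.98).

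**Figure D5:**
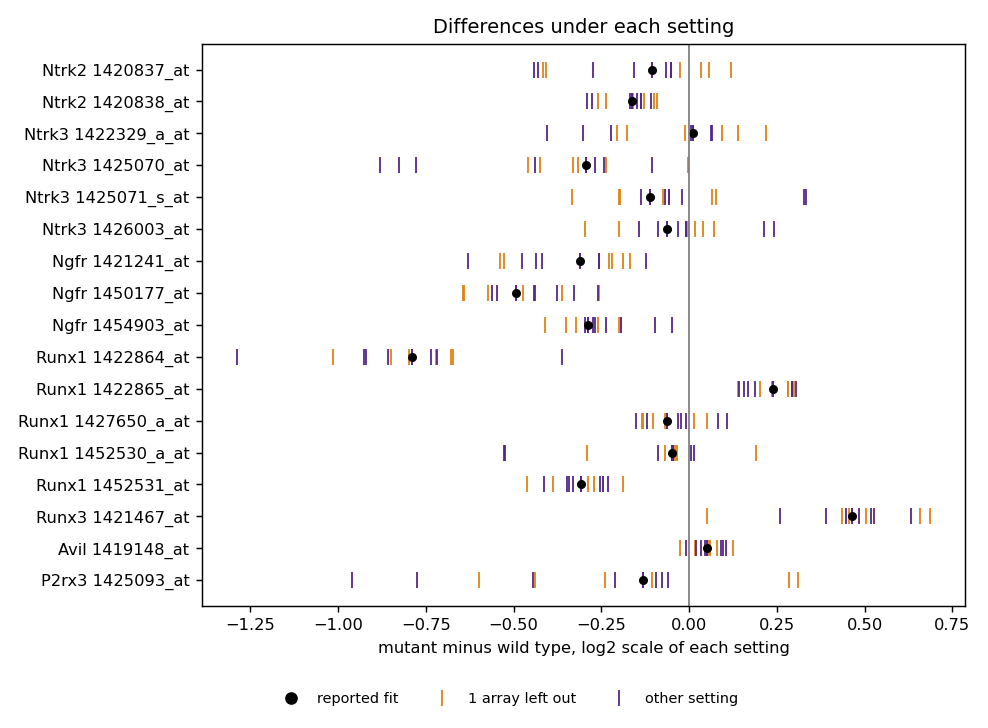
Mutant minus wild-type difference of each of the 17 probe sets in the reported fit (black points), with 1 array left out (orange) and under the other settings (purple), each on that setting's log2 scale. The sign is the same under all settings run for 4 of the 6 probe sets above background on all arrays, 2 of them of Ngfr, and it turns for Ntrk3 1422329_a_at in 6 settings. Settings that change only the error or the choice of probe sets leave the difference as it is and cannot turn a sign.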

How the data were processed

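Total RNA of pooled segments was hybridised to Affymetrix 430A arrays, per the labels. The deposited value of each probe set on each array is a linear intensity. The authors scaled each array, since the mean after trimming 2% at each end was 500.0 on all 6. The submitters' processing notes name affy, without its version or the expression algorithm. Precision is limited by the number of arrays.

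The 64 control probe sets were left out. Symbols come from the platform annotation, with 20380 probe sets naming 1 gene, 691 several and 1555 none, and those of other genes were updated through Entrez identifiers with RefSeq (GRCm38.p6, 20351 matched). Background is the 95th percentile of 27 bacterial control probe sets. Groups were compared by 2-sided moderated tests (lmFit, eBayes; limma 3.58.1, R 4.3.3) on log2(intensity + 16), with Benjamini-Hochberg adjustment over 22626 probe sets and a threshold of 0.05. The step was tested on simulated data. Lists use the brightest probe set of a gene. Every probe set of the 8 genes is named, and of other lists up to 3 genes of smallest p. Bdnf, Prph, Sncg, Kcnd1, Scn11a, Postn and genes given only as at background or present were chosen after their values were seen. The genes, lists and alternatives were chosen with earlier results of these data known. The replicate numbers were checked for pairing. Same-numbered arrays deviated together weakly for replicates 1 and 3 and not for replicate 2. No block was used in the reported fit, and a fit with a block is given below as a check.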

Additional observations from a re-analysis of the deposited data

How the results depend on the processing

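Of the 17 probe sets, 0 passed the threshold under any alternative setting in which they were fitted, 15 to 17 settings each. The direction was the same throughout for 9 of them, of which 4 were above background on all arrays, 2 on 1 array and 3 on none. Some settings cannot turn a sign, because they leave each difference as it is. These are the replicate block, the eBayes trend and robust settings, the removal of the dimmest probe sets and the use of 1 probe set per gene. Unchanged signs there carry no information. Over all probe sets, 0 passed in the reported fit, 3 with quantile normalization, 4 with array median centring, 2 without the dimmest 33.3% of probe sets, 3 with eBayes trend and robust settings and 4 with array weights, and the cause was not tested. The replicate block, used only as a check because the samples share no more than a number in their names, gave 0 calls, with Ngfr 1454903_at at -0.29 (limma adjusted p = 0.814). In this balanced design the block leaves each difference as it is and changes only its error. The number with an unadjusted p under 0.05 was 1303 in the reported fit, 2093 with array weights, 1975 without mutant replicate 1 and 723 with 1 probe set per gene, where fewer probe sets were tested.

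Signs turned as follows, the cause not being tested. With array weights, Avil 1419148_at was -0.0101 and Ntrk3 1422329_a_at -0.22. With the 18S covariate and without the 2 wild-type arrays of high 18S signal, Ntrk3 1422329_a_at was -0.30 and -0.41, 1425071_s_at was 0.33 and 0.33, 1426003_at was 0.24 and 0.21, and Runx1 1427650_a_at was 0.11 and 0.0815. Runx1 1452530_a_at was 0.0135 with quantile normalization and 0.0057 with array median centring. Over the settings that leave out 1 array, the differences ran from -0.0269 to 0.12 for Avil 1419148_at, from -0.42 to 0.12 for Ntrk2 1420837_at, from -0.21 to 0.22 for Ntrk3 1422329_a_at, from -0.33 to 0.076 for Ntrk3 1425071_s_at and from -0.30 to 0.0724 for Ntrk3 1426003_at. They ran from -0.60 to 0.31 for P2rx3 1425093_at, from -0.13 to 0.0503 for Runx1 1427650_a_at and from -0.29 to 0.19 for Runx1 1452530_a_at. Probe sets at background have no measured direction.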
